A study of Homo sapiens with 2 samples.

Results

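The genes described here are the zinc finger genes with a numbered ZNF symbol, taken as every gene of the authors' deposited table whose symbol is ZNF followed by a digit. There were 33 of them among the 2005 listed genes (1.65%). The RNA came from HES2, an established human embryonic stem cell line, infected with a lentivirus that carried a scrambled control sequence or a short hairpin RNA against TFCP2L1, a transcription factor of the CP2 family. Both cultures were kept for 3 passages in basal medium with 10% KSR, FGF2 at 10 ng/ml and Activin A at 10 ng/ml. Each group had 1 library, so none of the differences below could be checked against replicates, and each compares 2 libraries rather than 2 conditions. The table lists only genes that differed by at least 2-fold between the libraries, with a false discovery rate under 0.001 in the authors' deposited table, and nothing is said here about a ZNF gene without a row in it.

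ZNF proteins carry zinc fingers, short folds held by a zinc ion, and most have a row of the cysteine and histidine kind (C2H2), which together read a stretch of DNA. Many also have a KRAB domain, which recruits the corepressor TRIM28 and through it the histone methyltransferase SETDB1. In embryonic stem cells this pathway is known for silencing retrotransposons and other repeated elements. Human ZNF genes arose largely by tandem duplication and lie in clusters, many of them on chromosome 19, so that neighbours can be alike in sequence.

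Levels are in FPKM, fragments scaled by gene length and library depth, and 0.01 FPKM is the lowest value in the table. The table holds no read counts. They were inferred from the deposited levels, lengths and p-values, which gave about 23410000 reads for the scramble library and 22690000 for the knockdown library. Ratios are knockdown over scramble, from inferred reads scaled by depth, and their exact (Clopper-Pearson) 95% intervals cover counting error only. TFCP2L1 itself had a scramble level of 3.19 FPKM and a knockdown level of 0.33 FPKM, on 692 and 69 reads, which was 9.70-fold lower (interval 7.56 to 12.6). Of 10 markers of human embryonic stem cells, 3 had a row, and UTF1, PODXL and SOX2 were all lower, with summed levels of 491 FPKM (scramble) and 180 FPKM (knockdown). All 10 markers on the list for endoderm and primitive streak had a row and were higher, beside 54.1% of all listed genes. Their summed levels were 11.0 and 1404 FPKM, of which CER1 gave 6.11 and 798.8 FPKM, and SOX17 was at 0.01 FPKM in the scramble library. The marker lists were chosen with earlier results of these data known, so these counts describe the libraries and are no independent support. COL1A1, the listed one of 7 fibroblast markers, was at 110 and 24.4 FPKM, and NES, the listed one of 5 neuroectoderm markers, was at 95.9 and 252 FPKM. The part that these shifts in cell type markers have in the ZNF levels was not tested.

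Most of the listed ZNF genes were higher in the knockdown library. Of the 33 genes, 29 (87.9%) were higher and 4 were lower. Over all listed genes, 54.1% were higher and 45.9% lower, and within the range of mean level that the ZNF genes span, 53.3% of 1775 genes were higher. Of the listed genes with a symbol, 54.0% were higher. Fewer cells of a type and less RNA per cell cannot be told apart in these bulk libraries. Adding 0.1 FPKM to each level as a pseudocount, the median log2 ratio came to 1.25 over the ZNF genes and 1.01 over all listed genes. The size of the differences was modest: 21 of the 29 higher ZNF genes (72.4%) had a ratio under 3-fold in the authors' deposited table, against 45.2% of all higher genes. The median log2 ratio of the higher ZNF genes was 1.26, below the 1.5 of all higher genes, and that of the 4 lower ones was -1.18, against -1.37 for all lower genes.

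The ZNF genes were expressed at low levels, though at the median they were below all listed genes only in the scramble library. Their median scramble level was 1.06 FPKM, against 1.76 FPKM over all listed genes, and their median knockdown level was 2.26 FPKM, against 1.99 FPKM. In the scramble library 16 of them (48.5%) were below 1 FPKM, against 37.1% of all listed genes. A level of 1 FPKM or more in either library was reached by 26, of which 20 were 2-fold or more higher and 3 were 2-fold or more lower on the scale with the pseudocount. The background at that level was 1587 listed genes, 51.7% of them past 2-fold upward and 44.8% downward. ZNF503 was the only one past 4-fold at that level, where the background was 15.1% higher and 6.74% lower. The reads behind a gene numbered 21 to 4384 over both libraries, with a median of 222. The interval lay wholly above 2 for 16 ZNF genes (background 37.7%) and wholly below a 2-fold decrease for 1, ZNF888 (background 26.5%).

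**Figure D1:**
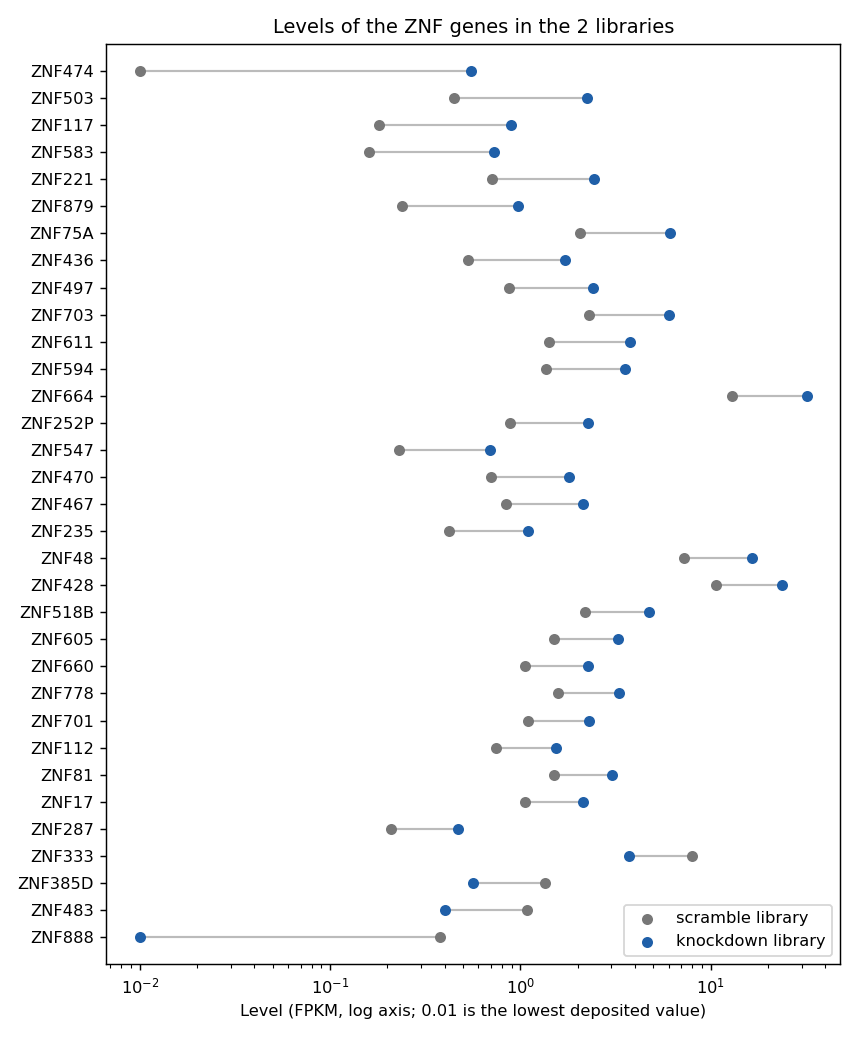
Level of each of the 33 ZNF genes in the scramble library (grey points) and the knockdown library (blue points), in FPKM on a log axis, ordered by log2 ratio. In 29 genes the blue point lies to the right, and ZNF664 has the highest level in both libraries, at 12.93 and 32.07 FPKM.

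The highest log2 ratio belonged to ZNF474, with a scramble level of 0.01 FPKM and no inferred reads, and a knockdown level of 0.55 FPKM on 24 reads. With a floor of 3 reads set for the scramble library it was 8.27-fold higher. That value carries no counting error, and its exact counting interval began lower, at 6.23. It was below 1 FPKM in both libraries. ZNF503, a corepressor of the NET family of zinc finger proteins, went from 0.45 FPKM (scramble) to 2.25 FPKM (knockdown), with a ratio of 4.96 (interval 3.43 to 7.37) on 35 and 168 reads. Its close relative ZNF703, known from luminal breast cancer, was at 2.29 and 6 FPKM on 178 and 451 reads, a ratio of 2.62 (interval 2.20 to 3.13). Both members of this family were thus higher. Of the 31-base words of the ZNF503 transcript, 10.8% lie in its antisense neighbour ZNF503-AS2, and the strand setting of the counting is not given in the sources used here.

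Among the genes that the table's orthology or protein text calls KRAB zinc fingers, 25 of 28 were higher and 3 lower. Of the other 5, 4 were higher and 1 lower, beside 54.1% higher over all listed genes. The table's text is broad. The longest reading frame of each gene's coding transcripts was therefore translated and searched for the KRAB box by a sequence pattern. The pattern was found in 17 of 32 translated ZNF genes (53.1%) and in 61.5% of 512 ZNF genes in the annotation. Those with the pattern were higher in 15 of 17 cases and those without in 13 of 15, with median log2 ratios of 1.19 and 1.25. Most genes were higher both with and without a match to the pattern. The pattern was not found in 10 genes that the text calls KRAB: ZNF117, ZNF497, ZNF594, ZNF467, ZNF664, ZNF48, ZNF518B, ZNF660, ZNF287 and ZNF483. A degenerate box can escape it. The number of C2H2 fingers found in the translated genes had a median of 12 and a highest value of 21 (ZNF594). It was 10 at the median over all annotated ZNF genes. In 3 of the translated genes, ZNF474, ZNF503 and ZNF703, none was found, and in ZNF428 only 1.

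Of the genes with the KRAB pattern, ZNF583 was at 0.16 FPKM (scramble) and 0.73 FPKM (knockdown), with a ratio of 4.83 on 9 and 42 reads (interval 2.32 to 11.3). ZNF879 was at 0.24 and 0.97 FPKM on 14 and 56 reads (ratio 4.14, interval 2.27 to 8.05). ZNF221 was at 0.71 and 2.45 FPKM on 37 and 123 reads (ratio 3.44, interval 2.36 to 5.11). These 3 had the highest log2 ratios of the KRAB group, and each interval lay above 2. ZNF436, at 0.53 and 1.71 FPKM on 54 and 168 reads, had a ratio of 3.22 (interval 2.36 to 4.46). ZNF547, at 0.23 and 0.69 FPKM on 15 and 44 reads, had a ratio of 3.03 with a wide interval of 1.66 to 5.87. ZNF75A, at 2.05 and 6.14 FPKM on 195 and 521 reads, had a ratio of 2.76 by inferred reads (interval 2.34 to 3.27) and 3 by level. ZNF75A is less certain, because 37.5% of the 31-base words of its longest transcript also occur in other genes.

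The remaining higher genes with the KRAB pattern lay closer together. ZNF611 was at 1.42 and 3.75 FPKM, on 256 and 671 reads, and its ratio of 2.71 (interval 2.34 to 3.14) is uncertain, since 29.6% of its words are shared, most of all with ZNF600. ZNF470 was at 0.70 and 1.81 FPKM on 117 and 291 reads (ratio 2.57, interval 2.07 to 3.22). ZNF235 was at 0.42 and 1.09 FPKM on 31 and 77 reads (ratio 2.57, interval 1.67 to 4.03). The last 6 of this group, ZNF605, ZNF778, ZNF701, ZNF112, ZNF17 and ZNF81, all had ratios between 2 and 2.17, and the interval of each reached below 2. ZNF605 was at 1.5 and 3.26 FPKM on 216 and 454 reads (interval 1.84 to 2.57). ZNF778 was at 1.57 and 3.30 FPKM on 130 and 265 reads (interval 1.70 to 2.62). ZNF701 was at 1.09 and 2.28 FPKM on 133 and 270 reads (interval 1.70 to 2.60). ZNF701 is less certain than its neighbours in this list, with 24.4% of its words shared. ZNF112 was at 0.74 and 1.54 FPKM on 63 and 127 reads (interval 1.53 to 2.87). ZNF17 was at 1.06 and 2.13 FPKM on 65 and 126 reads (interval 1.47 to 2.75). ZNF81 was at 1.51 and 3.03 FPKM (interval 1.63 to 2.47), with 143 and 277 reads estimated from its levels. Against counting error these 6 were above their scramble level, as were all 1084 higher genes that the entry rule of the table let in. They were not shown to be beyond 2-fold.

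The 3 highest knockdown levels were those of genes in which no KRAB pattern was found. ZNF664 was at 12.93 FPKM (scramble) and 32.07 FPKM (knockdown), on 1289 and 3095 reads. Its ratio of 2.48 had an interval of 2.33 to 2.65. ZNF428 was at 10.63 and 23.58 FPKM on 334 and 719 reads (ratio 2.23, interval 1.95 to 2.54). ZNF48 was at 7.20 and 16.42 FPKM on 508 and 1128 reads (ratio 2.30, interval 2.07 to 2.56). The ratios of these abundant genes lay between 2.23 and 2.48.

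Below them, ZNF518B was at 2.18 and 4.75 FPKM, with a ratio of 2.18 (interval 1.92 to 2.49) on 356 and 752 reads. ZNF594, in which the most fingers were found, was at 1.36 and 3.54 FPKM on 163 and 407 reads (ratio 2.58, interval 2.15 to 3.12). ZNF467, known in mice as a factor that favours fat cell over bone cell formation, was at 0.84 and 2.13 FPKM on 53 and 130 reads (ratio 2.54, interval 1.83 to 3.56). ZNF117, which shares its locus and part of its transcript with the endogenous retrovirus ERV3-1, was at 0.18 and 0.89 FPKM on 37 and 179 reads, a ratio of 5 (interval 3.50 to 7.34). ZNF497 was at 0.87 and 2.41 FPKM on 71 and 188 reads (ratio 2.74, interval 2.07 to 3.65), with 38.7% of its words shared, 23.2% with A1BG-AS1. ZNF660 was at 1.06 and 2.27 FPKM on 53 and 110 reads (ratio 2.15, interval 1.53 to 3.04). ZNF287, whose protein text names both a KRAB and a SCAN domain (SCAN domains pair zinc finger proteins with one another), was at 0.21 and 0.47 FPKM on 37 and 80 reads (ratio 2.24, interval 1.5 to 3.40). The pseudogene ZNF252P was at 0.88 and 2.26 FPKM on 108 and 268 reads, a ratio of 2.57 (interval 2.05 to 3.24), and was thus higher too.

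**Figure D2:**
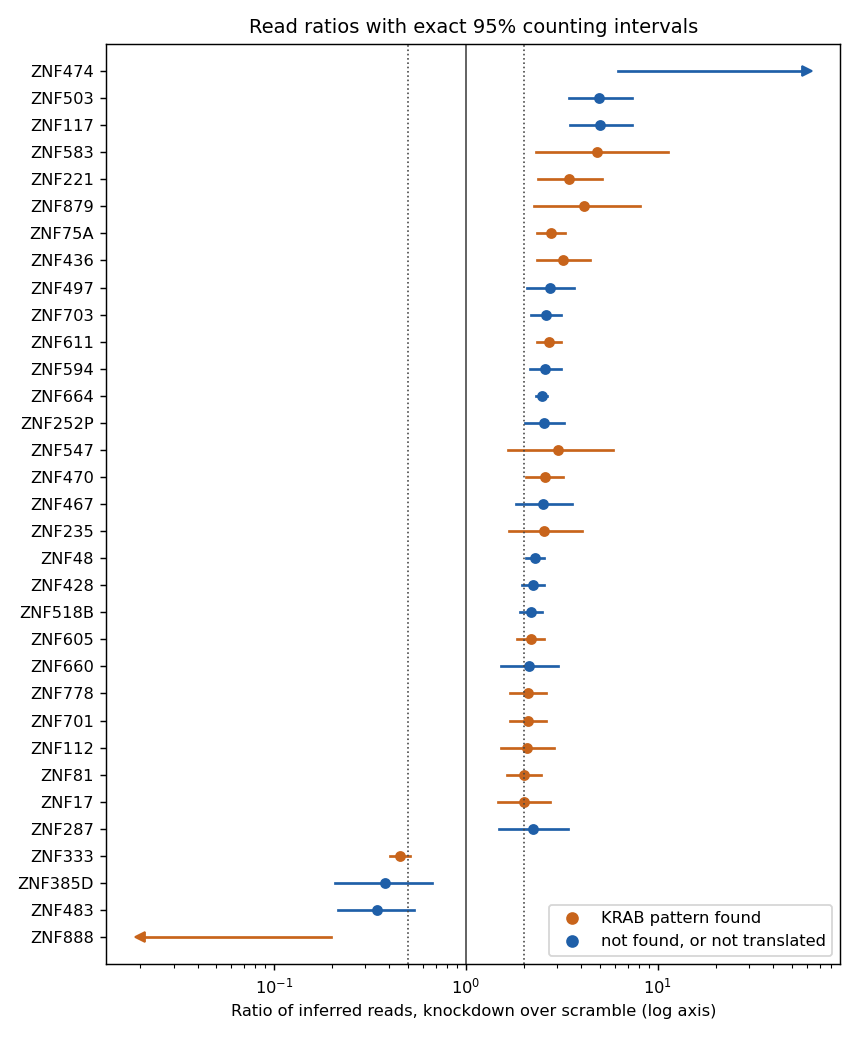
Ratio of inferred reads, knockdown over scramble, for each of the 33 ZNF genes on a log axis, with exact 95% counting intervals (horizontal lines); arrows mark ZNF474 and ZNF888, which had no reads in 1 library, and dotted lines mark 2-fold. Orange marks genes with the KRAB pattern and blue the others, and both colours lie on both sides of 1.

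The 4 lower genes differed in kind and in level. ZNF333, a KRAB zinc finger, was the most abundant of them, at 7.97 FPKM (scramble) and 3.74 FPKM (knockdown), on 912 and 401 reads, and was 2.20-fold lower (interval 1.95 to 2.48). ZNF483, which the table describes as a KRAB and SCAN protein, was at 1.08 and 0.40 FPKM on 84 and 28 reads, 2.90-fold lower (interval 1.87 to 4.62). ZNF385D, which the table's text does not call a KRAB protein, was at 1.34 and 0.56 FPKM on 49 and 18 reads, 2.63-fold lower (interval 1.51 to 4.8). In the authors' deposited table ZNF385D also had the largest false discovery rate of the ZNF genes, 0.000562, a value that compares these libraries and not the conditions. ZNF888 had a scramble level of 0.38 FPKM on 21 reads and a knockdown level of 0.01 FPKM, without a read. With the floor of 3 reads set for the knockdown library it was 6.77-fold lower, again without counting error. Its exact counting interval began at 5.03-fold lower. ZNF888 is uncertain, because 36.4% of its words occur in other genes, and 13.7% of its words in ZNF701, which was higher. Leaving out the 5 ZNF genes with 20% or more of their words shared (ZNF75A, ZNF497, ZNF611, ZNF701 and ZNF888) left 25 higher and 3 lower.

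**Figure D3:**
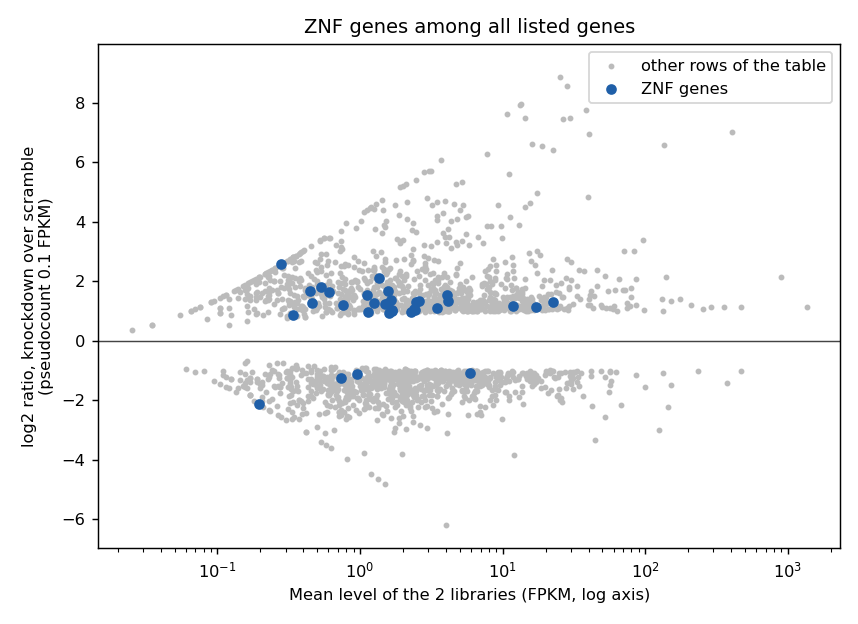
Log2 ratio (pseudocount 0.1 FPKM) against the mean level of both libraries (FPKM, log axis) for all 2005 listed genes (grey) and the 33 ZNF genes (blue); the table holds no gene with a smaller deposited difference than 2-fold, which leaves the gap around 0. The ZNF genes lie mostly just above the gap, and the highest is ZNF474 at 2.56.

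Position was read from the RefSeq gene order, in which all 33 genes were found on 13 chromosomes. Chromosome 19 held 13 of the listed ZNF genes (39.4%), against 48.4% of 517 protein-coding ZNF genes in RefSeq. Of these 13, 11 were higher and 2, ZNF333 and ZNF888, were lower, and of the 20 elsewhere 18 were higher. The other listed genes on chromosome 19 went mostly the other way, with 36 of 112 higher (32.1%). This contrast is a description of listed genes and was not tested.

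Several of the chromosome 19 genes are near neighbours. ZNF235 and ZNF112 lie next to each other with no coding gene between them, and both were higher. ZNF547 and ZNF17 have 1 coding gene between them, and ZNF583 and ZNF470 have 4, and all 4 of these ZNF genes were higher. In the stretch with ZNF701, ZNF611 and ZNF888, ZNF701 and ZNF611 have 2 coding genes between them and ZNF611 and ZNF888 have 4. There the first 2 were higher and ZNF888 lower, so neighbours did not all go the same way.

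**Figure D4:**
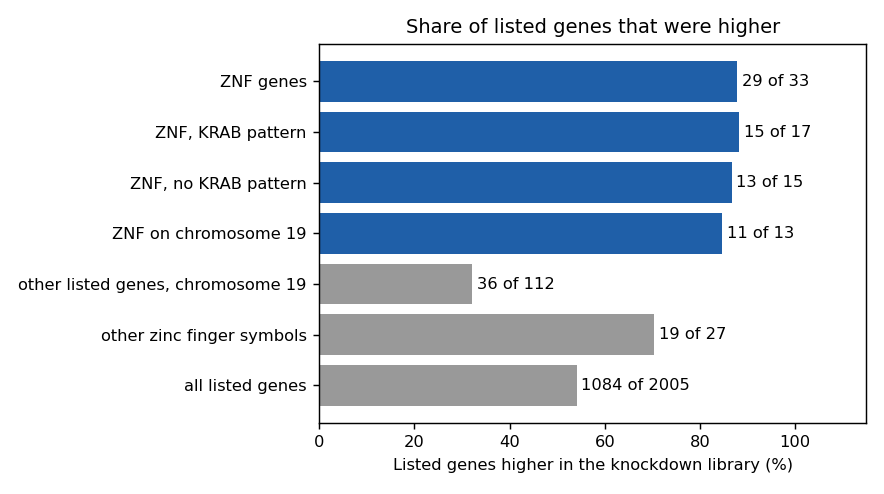
Percent of listed genes that were higher in the knockdown library, with the counts beside each bar, for the ZNF genes and their subsets (blue) and for comparison sets (grey). The ZNF bars lie near 87.9%, all listed genes at 54.1% and the other listed genes of chromosome 19 at 32.1%.

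Promoter sequences, from 250 bases before to 50 bases after the start of the gene, were at hand from RefSeq (GRCh38.p14) for 29 of the 33 genes, all but ZNF888, ZNF252P, ZNF703 and ZNF221. The study's own build is hg19, per the submitters' processing notes, and no position was carried between the builds. The members' promoters were rich in CpG, with a median of 25 CpG and 63.0% G and C. The medians were 22 and 61.3% over 647 ZNF promoters, and 14 and 58.7% over all 35116 promoters. Both comparison sets, here and for the motifs below, were taken without a filter for protein-coding genes. Of the 33 ZNF genes 32 are protein-coding, so the sets may differ in kind. The promoter of ZNF474, the gene with the highest ratio, had 4 CpG and 42.7% G and C, and that of ZNF117 had 2 CpG and 42.3%. ZNF474 is shown first (chr5:122129296-122129595, plus strand), with the T-box letters GGTGTGA, found on the opposite strand 12 bases after the start, in capitals as they read on the gene's strand. ZNF664 follows as the most abundant of the genes (chr12:123972965-123973264, plus strand), with 51 CpG, 84.3% G and C, and its 3 GC boxes GGGCGG in capitals, the first 2 of them adjoining.
ZNF474: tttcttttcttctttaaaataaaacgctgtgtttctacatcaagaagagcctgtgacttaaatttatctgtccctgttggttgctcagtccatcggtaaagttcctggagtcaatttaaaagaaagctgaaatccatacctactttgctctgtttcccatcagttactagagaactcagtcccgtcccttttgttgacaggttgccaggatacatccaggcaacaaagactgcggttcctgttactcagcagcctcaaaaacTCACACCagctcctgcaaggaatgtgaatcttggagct
ZNF664: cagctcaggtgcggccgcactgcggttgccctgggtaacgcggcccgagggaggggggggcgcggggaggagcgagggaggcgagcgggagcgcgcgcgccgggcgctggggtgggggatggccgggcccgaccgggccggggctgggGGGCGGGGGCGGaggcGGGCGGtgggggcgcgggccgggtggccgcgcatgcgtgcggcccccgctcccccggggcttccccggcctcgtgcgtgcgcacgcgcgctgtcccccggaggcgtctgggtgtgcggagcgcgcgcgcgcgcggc

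TFCP2L1 is known to bind a direct repeat of CCAG. This repeat, with any 6 bases between its copies and searched on both strands like every motif here, occurred in 1 of the 29 promoters, that of ZNF605, against 4.04% of all promoters and 4.02% of ZNF promoters. A match describes letters in this window and is not a binding site. The promoter of ZNF605 (chr12:132956257-132956556, minus strand) has the repeat 126 bases before the start, in capitals. The TCF/LEF letters ATCAAAG also occurred in 1, that of ZNF117 (chr7:64990987-64991286, minus strand), 241 bases before the start, against 2.62% of all promoters.
ZNF605: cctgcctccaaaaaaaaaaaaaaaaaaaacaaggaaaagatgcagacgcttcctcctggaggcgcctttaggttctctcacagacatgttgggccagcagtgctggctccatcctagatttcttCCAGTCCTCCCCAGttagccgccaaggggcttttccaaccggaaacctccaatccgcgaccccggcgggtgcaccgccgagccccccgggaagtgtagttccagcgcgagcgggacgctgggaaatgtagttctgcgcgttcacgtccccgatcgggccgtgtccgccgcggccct
ZNF117: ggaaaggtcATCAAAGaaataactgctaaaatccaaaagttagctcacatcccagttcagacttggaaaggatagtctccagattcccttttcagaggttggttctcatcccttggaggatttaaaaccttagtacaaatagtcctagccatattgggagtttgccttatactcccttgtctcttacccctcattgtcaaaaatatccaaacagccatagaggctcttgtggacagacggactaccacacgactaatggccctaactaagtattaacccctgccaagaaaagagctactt

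Of the factor families that the endoderm and streak markers belong to, T-box letters (GGTGTGA) occurred in 1 promoter (3.45%, and 3.45% of all), forkhead letters (TGTTTAC) in none (3.42% of all), GATA letters (AGATAA) in 2 (6.90%, against 10.3% of all) and SOX letters (ACAAAG) in 5 (17.2%, against 16.1% of all). Over ZNF promoters these shares were 3.40% (T-box), 1.55% (forkhead), 5.26% (GATA) and 18.7% (SOX). With 5 matches or fewer in each family, no share is singled out. The ETS letters CCGGAAG, of the 9 motifs the one that differed most from promoters in general, occurred in 9 of 29 (31%) against 10.3% of all, and in 33.4% of ZNF promoters. The CCAAT box (CCAAT) occurred in 9 (31%, against 34.6% of all and 42.7% of ZNF promoters), and the GC box in 16 (55.2%, against 45.0% and 60%). The 9 promoters held 10 ETS matches, and 8 of the 9 genes were higher, as were 26 of the 29 genes with a promoter (89.7%). In 5 genes a match lay within 4 bases of the start, and these sites are shown to let the flanks be compared, each read on the strand of the match and with the ETS letters in capitals. In the same order they lie at chr19:52735025-52735049 (ZNF611, minus strand), chr17:5191852-5191876 (ZNF594, minus strand), chr19:56567460-56567484 (ZNF470, minus strand), chrX:47836891-47836915 (ZNF81, plus strand) and chr19:14690035-14690059 (ZNF333, plus strand) of GRCh38.p14. The first 4 genes were higher and ZNF333 was lower, with the same letters at nearly the same place.
ZNF611: aacgcaaacCCGGAAGcggatcggg
ZNF594: gggagcgcaCCGGAAGttctcgcct
ZNF470: gggtcctttCCGGAAGtgggcgtgt
ZNF81: gggtagtgaCCGGAAGcggctgcgg
ZNF333: gccccgagaCCGGAAGcggaagtgc

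**Figure D5:**
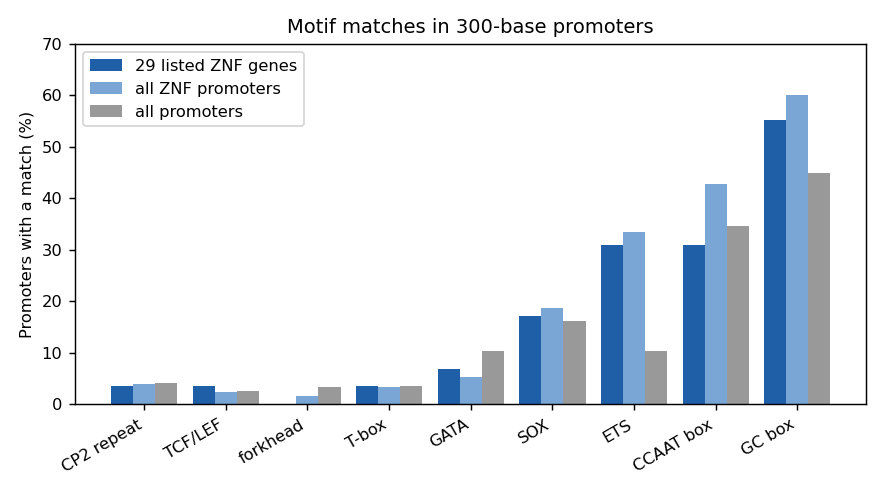
Percent of 300-base promoters with at least 1 match to each of 9 motifs, for the 29 listed ZNF genes with a promoter (dark blue), all ZNF promoters (light blue) and all promoters (grey). The ETS bars of the listed ZNF genes (31%) and of all ZNF promoters (33.4%) stand above that of all promoters (10.3%).

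Zinc finger genes under other symbols, taken from a list of symbol families, were represented by 27 listed genes. Of these, 19 (70.4%) were higher and 8 lower, beside 54.1% higher over all listed genes. The ZFP symbols had 3 rows, all higher (ZFP91-CNTF, a readthrough of a zinc finger gene and its neighbour, ZFP36L2, an RNA-binding protein that destabilises messages, and ZFP3), ZSCAN had ZSCAN16 and ZBTB had ZBTB45, both higher. ZFP3 was at 0.47 and 1.11 FPKM, ZSCAN16 at 1.63 and 4.37 FPKM and ZBTB45 at 8.17 and 16.47 FPKM. ZIC2, a regulator of neural development, had the highest knockdown level of the 27, at 18.67 and 85.46 FPKM, a ratio of 4.59 (interval 4.32 to 4.88). Other families were split. Of 6 KLF genes 3 were higher and 3 lower, among them KLF5 at 3.72 and 10.95 FPKM and KLF10, a target of TGF-beta, at 37.78 and 12.24 FPKM. Of 3 PRDM genes, PRDM1 and PRDM4 were higher and PRDM14, a regulator of pluripotency, was lower, and of 4 ZDHHC genes, palmitoyl transferases, 2 went each way. The lowest ratio of the 27 was that of ZMAT4, at 4.10 and 0.62 FPKM, 6.51-fold lower (interval 4.53 to 9.63).

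Of 36 partners of the KRAB pathway on a list of cofactors, among them TRIM28, SETDB1, the HP1 genes CBX1, CBX3 and CBX5, and the DNA methyltransferases, 1 had a row. UHRF1, which guides maintenance of DNA methylation, was at 9.47 FPKM (scramble) and 23.09 FPKM (knockdown), with a ratio of 2.44 (interval 2.26 to 2.65). The rest had no row, and their levels are not analysed here.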

How the data were processed

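Total RNA (1 ug per library) from 1 scramble and 1 knockdown culture was read on a BGISEQ-500 instrument. This is per the labels' protocols, which also name Illumina protocols. The submitters' processing notes name the build hg19 and Bowtie 0.12.2. For the counter, quantifier, test and filters, the tools are not stated in the labels. The authors' deposited table gives a level per library, read as FPKM (RPKM cannot be told apart), a log2 ratio, a p-value and a false discovery rate (largest 0.000990), and a gene length.

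Members, lists and tests were chosen with earlier results of these data known. Log2 ratios were computed with a pseudocount of 0.1 FPKM, which understates low genes. Whole reads were inferred as pairs matching both FPKM levels and the deposited p-value under Audic and Claverie's Poisson model (a form read from the values) within 5e-05 on its natural log; the depth ratio was 1.034. A pair was found for 1772 (92.0%) of the 1926 genes whose p-value was not 0. Of the 33 ZNF genes 31 had exactly 1, ZNF611 had 2 (the closer to its levels was used) and ZNF81 none, so its reads came from FPKM. Inference and intervals were tested on simulated data. The simulation drew Poisson reads and made p-values by the same model, so it cannot test that model or error beyond counting. With 1 library per group no p-value was computed. Intervals cover counting error, because without molecular identifiers a read need not be its own molecule.

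Named genes were all 33 members, with full values for the 6 highest and 6 lowest log2 ratios, the 4 highest levels in each direction and every KRAB member, plus TFCP2L1 and listed cofactors. Other zinc finger genes were chosen after their values were seen. Shared 31-base words, on both strands, and reading frames came from GENCODE 29 transcripts. The KRAB pattern was widened after a stricter one had been tried on these genes. Promoters and gene order came from RefSeq GRCh38.p14. Python 3.11.15, scipy 1.17.1 and pandas 2.3.3 were used. Pseudocounts, level minimums and the KRAB call were varied.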

Additional observations from a re-analysis of the deposited data

How the results depend on the processing

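The count of 29 higher and 4 lower ZNF genes was 29 and 4 by counting interval, 23 and 3 at 1 FPKM or more, and 25 and 3 without genes of shared sequence. The counting interval is no separate check, because only genes past the authors' false discovery rate are listed. Over all listed genes, the intervals of all 1084 higher genes lay above 1 and those of all 921 lower genes below 1. The counts of 20 higher and 3 lower genes past 2-fold depended on the pseudocount. Their background was 51.7% higher and 44.8% lower over listed genes at 1 FPKM or more. With 1 FPKM they were 7 and 0, and by a counting interval wholly beyond 2-fold, at 1 FPKM or more, 12 and 0. With a pseudocount of 0.01 FPKM they were 23 and 3. By the deposited ratio all 33 ZNF genes were past 2-fold in either direction, which the entry rule of the table requires of every listed gene. With the pseudocount of 0.1 FPKM they were 29. Shares of all listed genes under these other settings were not computed. With a pseudocount of 1 FPKM, which moves low genes toward 0 by construction, 7 ZNF genes were past 2-fold. The median log2 ratio of 1.25 was 0.73 with that pseudocount and 1.34 with the deposited ratios. KRAB genes that were higher numbered 25 by the table's text and 15 by translated transcripts, an alternative chosen after seeing the data. The direction of a gene cannot change with the pseudocount or the deposited ratio, since both use the same 2 levels. Inferred reads, which were matched to those levels, changed the direction of none of the 31 genes with reads in both libraries. Among these, the reads of ZNF81 were estimated from its levels. The KRAB call from a protein table was not run, for want of one among the files used here. No paired analysis was possible because each group had 1 library, and none could be left out. Depth limits the genes with few reads: ZNF583, on 9 and 42 reads, had an interval of 2.32 to 11.3.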

Other observations

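The orthology text of the table does not always describe the gene it stands beside. For ZNF474 it names a folate transporter of the solute carrier family, while the protein text names the zinc finger protein itself. With the protein text it calls 28 of the 33 ZNF genes KRAB proteins, and in 10 of these no KRAB pattern was found in the translated transcripts.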
